A study of Medicago truncatula with 4 samples.

Results

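The PLETHORA genes encode transcription factors of the AP2 type, and in *M. truncatula* calli 5 of the 52709 genes in the deposited tables carry the word plethora in their description. They are *MtPLT1* (MtrunA17Chr2g0328971, Medtr2g098180 in the older annotation), *MtPLT2* (MtrunA17Chr4g0032631, Medtr4g065370), *MtPLT3* (MtrunA17Chr5g0412151, Medtr5g031880), *MtPLT4*, which is also named *MtBBM* for BABY BOOM (MtrunA17Chr7g0249621, Medtr7g080460), and *MtPLT5* (MtrunA17Chr4g0072291, Medtr4g127930). By their IDs in the MtrunA17r5.0-ANR annotation they lie on chromosomes 2, 4, 5, 7 and 4. The description chose the 5 genes, and the family was taken up because its higher counts in *MtWOX9-1*-overexpressing calli were already known. Their difference between the 2 kinds of calli is therefore given as a description, without a p-value.

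PLETHORA factors hold stem cells of the root apex in an undifferentiated state in *A. thaliana*, where auxin raises their transcription and the protein level falls with distance from the stem cells. BABY BOOM induces somatic embryos when it is overexpressed in *A. thaliana* and *Brassica napus*. In *M. truncatula* the PLETHORA genes are also known from the meristem of the root nodule.

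RNA was sequenced from calli of leaf explants of the *M. truncatula* line R108. Leaves came from wildtype plants that were 35 days old (2 libraries) or from R108 plants of the same age that carry an insertion of the pMDC32 plasmid with the coding sequence of *MtWOX9-1*, a WUSCHEL-related homeobox factor that stimulates somatic embryogenesis (2 libraries). pMDC32 drives its insert from a constitutive promoter. All explants spent 30 days on a medium with the auxin 2,4-D at 18 μM and the cytokinin BAP at 2.22 μM followed by 5 days with neither hormone, and calli were taken on day 35. The wildtype plants carried no plasmid, so effects of the insertion itself and of *MtWOX9-1* cannot be told apart, and the labels do not say how many transgenic lines or plants stand behind the 2 libraries.

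The libraries held between 5241334 and 6666866 counts. *MtWOX9-1* itself (MtrunA17Chr2g0283141) had 2 and 18 counts in wildtype replicates 1 and 2 and 7692 and 7634 in the overexpressing replicates, which follows the labels, and wildtype replicate 2 was above wildtype replicate 1 for this gene too. The keywords for photosynthetic leaf matched 0 genes in the deposited annotation, so the leaf origin of the calli was not checked by markers. Normalized counts here express each count at the mean effective library size (library total times scaling factor) of the 4 libraries. With 2 libraries against 2 an exact permutation test cannot go below p = 0.333, so the tests of other genes rest on edgeR's model across all genes.

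All 5 PLETHORA genes had more normalized counts in both *MtWOX9-1*-overexpressing libraries than in either wildtype library. Among the 24630 genes tested, which are those of 10 counts or more over the 4 libraries, 39.3% stood in this order. The summed reads of the 5 genes were 67 and 305 in wildtype replicates 1 and 2 and 4232 and 3339 in overexpressing replicates 1 and 2. On the normalized scale this sum averaged 220 ± 209 for wildtype and 3375 ± 498 for overexpressing libraries (SD, n = 2 each), a ratio of 15.4. The wildtype libraries differed from each other by a factor of 5.09 and the overexpressing libraries by 1.23, and overexpressing replicate 2 was 8.23-fold above wildtype replicate 2. In bulk tissue, fewer cells with the transcript and less transcript per cell cannot be told apart.

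*MtPLT4* (*MtBBM*) had 9 and 90 counts in wildtype replicates 1 and 2 and 1241 and 958 counts in overexpressing replicates 1 and 2. The mean normalized count was 59.0 ± 69.7 for wildtype and 980.0 ± 160 for overexpressing libraries (SD, n = 2 each), with a fitted log2 fold change of 4.08 (standard error 0.82). The wildtype libraries thus differed 11.2-fold from each other, and wildtype replicate 2 reached 11.1% of the mean of the overexpressing libraries while replicate 1 reached 0.989%. BABY BOOM was hence detected in all 4 libraries, with the lower overexpressing library 8.01-fold above the higher wildtype library.

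*MtPLT3* had the most reads of the 5 genes in each library, namely 42 and 121 for wildtype and 1474 and 1188 for overexpressing replicates 1 and 2. Its normalized counts rose from 95.4 ± 71.0 to 1187 ± 158 (SD, n = 2 each), a fitted log2 fold change of 3.65 (standard error 0.51). In *A. thaliana* PLT3 acts in the root apex and in the formation of lateral roots. Reads are not divided by gene length here, so a larger read number does not mean a larger number of transcripts than for the other members.

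*MtPLT1* and *MtPLT2* share their names with the founding pair of root stem cell regulators of *A. thaliana*. *MtPLT1* had 0 and 48 counts in wildtype replicates 1 and 2 and 697 and 489 counts in overexpressing replicates 1 and 2. For *MtPLT2* the counts were 0 and 10 in wildtype against 532 and 384. Wildtype replicate 1 was therefore without a read of either gene, which at 3 counts of its total allows up to 0.495 CPM (counts per 1000000 counts of the library). *MtPLT1* stood at 9.16 CPM in wildtype replicate 2, at least 17.9-fold above that limit in normalized counts, and *MtPLT2* stood at 1.91 CPM, at least 3.73-fold above it. In overexpressing calli *MtPLT1* reached 528 ± 121 and *MtPLT2* 408 ± 85.5 normalized counts (SD, n = 2 each). The fitted log2 fold changes were 4.24 (standard error 0.97) for *MtPLT1* and 6.13 (standard error 0.67) for *MtPLT2*, so the gene with the highest fold change was the one with the fewest wildtype reads.

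*MtPLT5* had 16 and 36 counts in wildtype replicates 1 and 2 and 288 and 320 counts in overexpressing replicates 1 and 2. Mean normalized counts were 30.3 ± 18.5 for wildtype and 271.6 ± 25.5 for overexpressing libraries (SD, n = 2 each), and its fitted log2 fold change of 3.18 (standard error 0.37) was the lowest of the 5. It was also the member whose wildtype replicates were closest, at a ratio of 2.52. *MtPLT5* was the 1 member with more normalized counts in overexpressing replicate 2 than in replicate 1, by a factor of 1.14, whereas the other 4 were 1.21- to 1.39-fold higher in replicate 1. Over all genes tested, 48.7% were higher in overexpressing replicate 1.

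**Figure D1:**
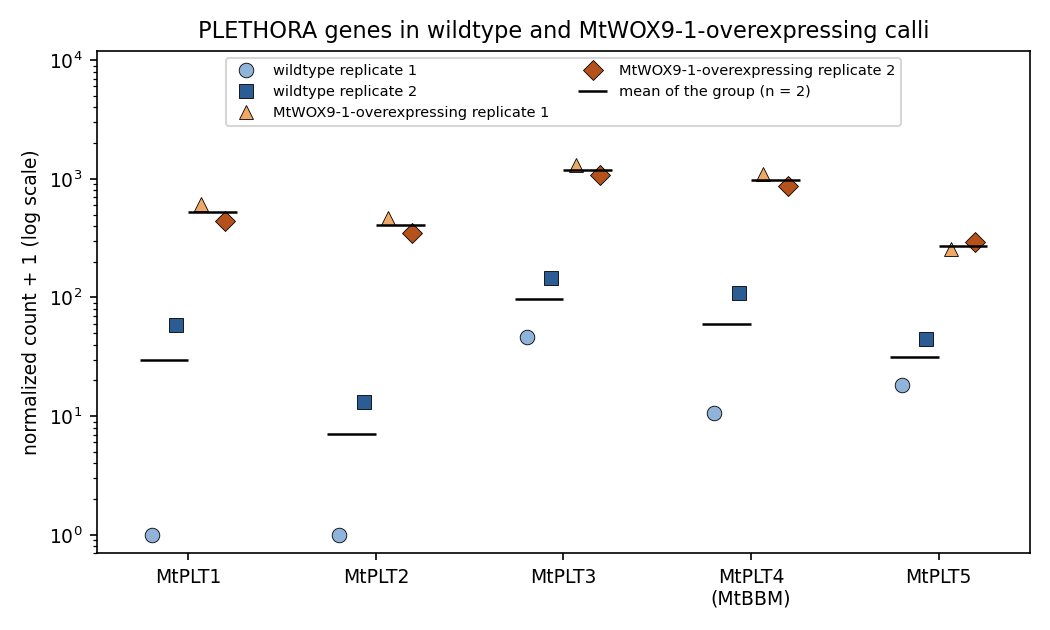
Normalized count plus 1 on a log axis for the 5 PLETHORA genes, with 1 point per library and a line at the mean of each group (n = 2). For each gene both *MtWOX9-1*-overexpressing libraries lie above both wildtype libraries, and wildtype replicate 2 lies above replicate 1, where *MtPLT1* and *MtPLT2* have 0 counts.

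The median fitted log2 fold change of the 5 genes was 4.08, beside 0.04 over all genes tested. Between 2.55% and 6.61% of the tested genes had a higher fold change than a given member. These ranks depend on genes with few wildtype reads, whose fitted values depend on the prior count. Of the 1473 other genes called higher with at least the fold change of *MtPLT5*, 334 had at least 10 counts over both wildtype libraries. In the fit across all genes 5 of the 5 were called higher at an adjusted p under 0.05 (edgeR), a call made for 20.2% of all genes tested (39.2% were called in either direction). With DESeq2, where 13.3% of genes were called higher, 4 of the 5 were called. The gene not called was *MtPLT1*, and it was also not called without overexpressing replicate 1 (log2 fold change 3.98) or without overexpressing replicate 2 (4.46). *MtPLT4* was not called without overexpressing replicate 1 (3.91). Because the family was taken up for this difference, nothing is read from these counts.

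The size of the fold changes moved with wildtype replicate 2. Without it the fitted log2 fold change was 4.71 for *MtPLT3*, 6.65 for *MtPLT4* and 3.97 for *MtPLT5*. Without wildtype replicate 1 the same genes stood at 3.02, 3.17 and 2.64, *MtPLT1* at 3.19 and *MtPLT2* at 5.07. For *MtPLT1* and *MtPLT2* the fits without wildtype replicate 2 (12.13 and 11.75) have no wildtype read behind them. Against 3 counts in wildtype replicate 1, the mean of the overexpressing libraries was at least 164-fold higher for *MtPLT1* and at least 126-fold higher for *MtPLT2*. With both genes at these bounds the median of the 5 without wildtype replicate 2 stayed at 6.65. Every member had a positive fold change whichever of the 4 libraries was left out.

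**Figure D2:**
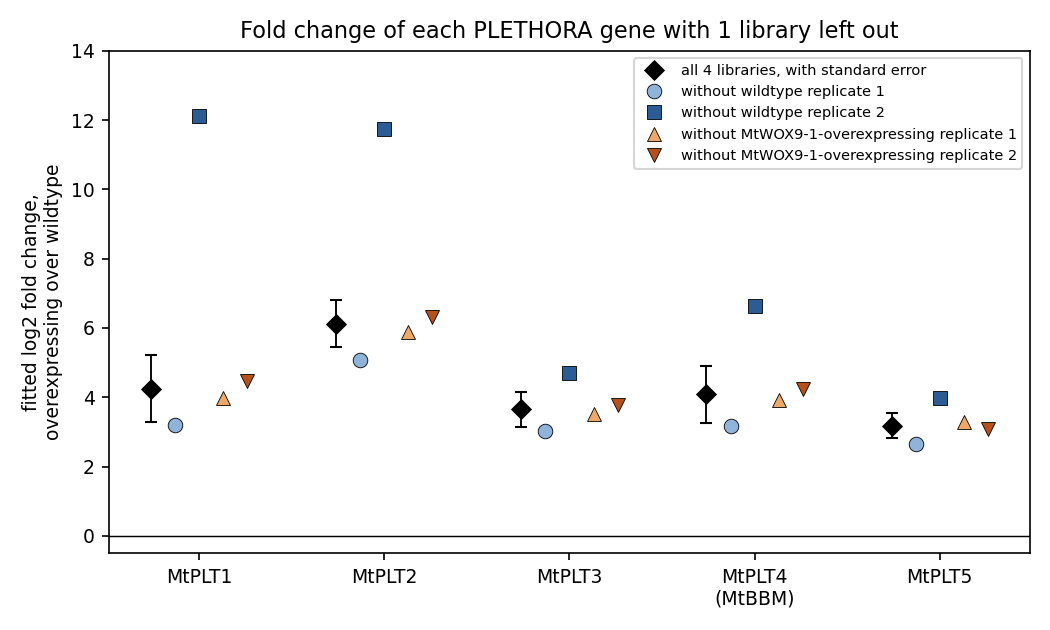
Fitted log2 fold change of *MtWOX9-1*-overexpressing over wildtype calli for each PLETHORA gene, from all 4 libraries (diamonds, bars are standard errors) or after removal of each single library. Leaving out wildtype replicate 2 gave the highest value for each gene, and the values for *MtPLT1* and *MtPLT2* near 12 rest on 0 wildtype counts.

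Wildtype replicate 2 was above replicate 1 for 5 of the 5 PLETHORA genes, whereas 49.8% of all genes tested were higher in replicate 2. The members' median log2 ratio of replicate 2 over replicate 1, with 1 added to each normalized count, was 3.35, and over all genes tested the median was 0.00 with 90% of genes between -0.70 and 1.28. The difference between wildtype replicates was thus larger for each PLETHORA gene than for most genes. *MtPLT5*, with the smallest ratio of the 5, stood at 1.28, close to the upper end of that range, and *MtPLT1*, with the largest, at 5.88. Between the overexpressing replicates the members' log2 ratios lay from -0.47 to 0.19, inside the range of -0.72 to 0.90 that held 90% of genes.

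The same comparison was made for the other genes that rose. Of the 4980 other genes called higher (edgeR), 64.5% had more normalized counts in wildtype replicate 2, with a median log2 ratio of 0.12. Of the 1473 with a fold change of at least that of *MtPLT5*, 649 (44.1%) did, with a median of 0.00. The 5th percentile was 0.00 as well, so few were higher in replicate 1 and most of the rest were ties. A larger share was higher in replicate 2 when genes with few wildtype reads were set aside. Of the genes that were called higher, had a fold change of at least that of *MtPLT5* and had at least 10 counts over both wildtype libraries, 334 were not PLETHORA genes. Of these 334, 313 (93.7%) had more normalized counts in wildtype replicate 2, with a median log2 ratio of 1.75. In 81 of them wildtype replicate 1 had 0 counts, and in 5 wildtype replicate 2 had 0. This group was chosen on the same libraries, so the share is a description. What set the wildtype libraries apart was not tested.

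Relative to the mean of the overexpressing libraries, wildtype replicate 2 stood at 10.9% for *MtPLT1*, 2.95% for *MtPLT2*, 12.3% for *MtPLT3*, 11.1% for *MtPLT4* and 16.0% for *MtPLT5*. Wildtype replicate 1 stood at 3.81% for *MtPLT3*, 0.989% for *MtPLT4* and 6.34% for *MtPLT5*, with no reads of the other members. In both libraries *MtPLT5* stood highest by this measure and *MtPLT3* next, followed by *MtPLT4*.

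The make-up of the summed PLETHORA reads also differed between libraries. In wildtype replicate 1, *MtPLT3* held 62.7% of the 67 reads (exact 95% binomial interval 50.0% to 74.2%), *MtPLT5* 23.9% (14.3% to 35.9%) and *MtPLT4* 13.4% (6.33% to 24.0%). *MtPLT1* and *MtPLT2* held 0 of the 67 reads, with an upper limit of 5.36% each by the same interval. These intervals cover counting error only. In wildtype replicate 2 *MtPLT3* was down to 39.7% (34.1% to 45.4%), and *MtPLT1* held 15.7% (11.8% to 20.3%).

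The 2 overexpressing libraries resembled each other more closely than the wildtype libraries did. *MtPLT3* held 34.8% and 35.6% of the PLETHORA reads, *MtPLT4* 29.3% and 28.7%, and *MtPLT1* 16.5% and 14.6%. *MtPLT4* held 29.5% in wildtype replicate 2 as well, so for this gene and for *MtPLT1* the share in wildtype replicate 2 lay within 1 percentage point of the share in an overexpressing library. *MtPLT2* did not follow, with 3.28% (1.58% to 5.95%) in wildtype replicate 2 against 12.6% and 11.5% in the overexpressing libraries. *MtPLT5* had its smallest share in overexpressing calli, with 6.81% and 9.58%.

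**Figure D3:**
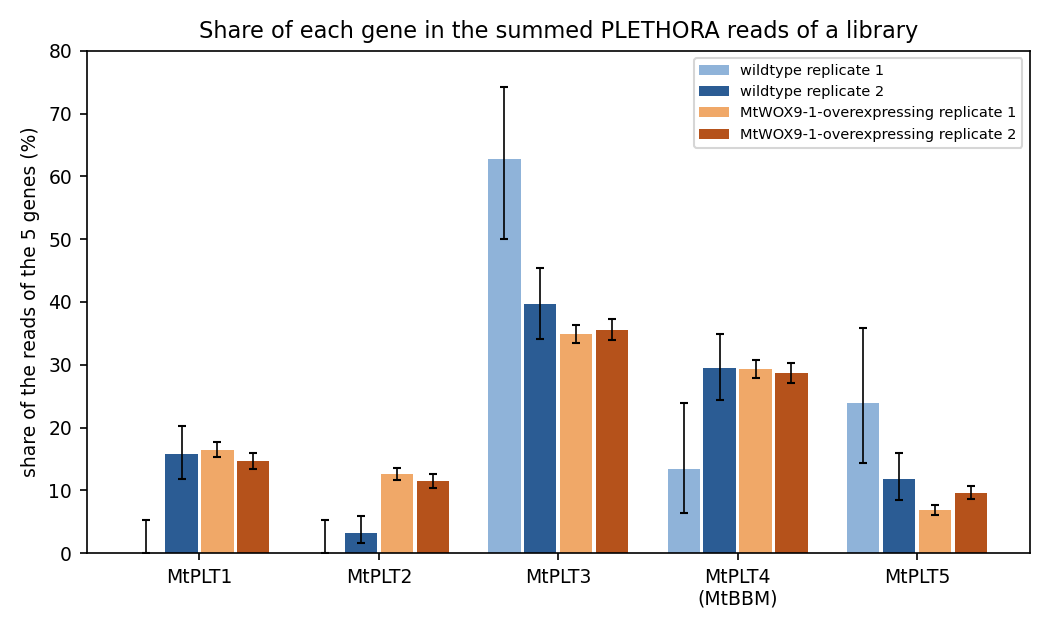
Share of each gene in the summed reads of the 5 PLETHORA genes, by library, with exact 95% binomial intervals that cover counting error only. *MtPLT3* and *MtPLT5* take larger shares in wildtype replicate 1 than in the other libraries, and *MtPLT1* and *MtPLT2* have 0 of 67 reads there.

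Lists of genes around the PLETHORA factors were matched in the deposited symbols and descriptions, 84 genes in all, of which 47 were tested. At an adjusted p under 0.05 (edgeR), 24 were higher and 5 lower in overexpressing calli, or 20 and 4 with DESeq2. Over all genes the test called 20.2% higher and 18.9% lower. The lists were chosen with earlier results of these data known, so nothing is read from the difference between these shares. The lists are given below by role, and folds of genes at 0 counts in both libraries of a group are lower bounds against 3 counts per library.

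Among regulators of the root stem cell niche, *MtSCR* (SCARECROW, a GRAS factor needed for the quiescent centre in *A. thaliana*) rose from 106 and 135 counts to 744 and 496, a log2 fold change of 2.00 (standard error 0.27, edgeR adjusted p = 0.0066). *MtJKD* (JACKDAW, a zinc finger partner of SCARECROW and SHORT-ROOT in *A. thaliana*) had no wildtype read and 4 and 8 in overexpressing calli, at least 1.57-fold higher (edgeR adjusted p = 0.041). The call of *MtJKD* was lost with DESeq2 (adjusted p = 0.27), with a minimum of 1 count, with the replicate number as a block, and without wildtype replicate 1 or wildtype replicate 2, where the fitted log2 values (5.49 and 5.54) have no wildtype read behind them and depend on the prior count. *MtSHR1* (SHORT-ROOT) had 2 counts in each wildtype library and 10 and 7 in overexpressing calli (edgeR adjusted p = 0.073). *MtWOX5*, which marks the quiescent centre in *A. thaliana*, had 0 and 9 counts in wildtype and 0 and 20 counts in overexpressing replicates 1 and 2 (edgeR adjusted p = 0.76), so its replicates differed more than its groups, and the sign of its log2 fold change of 0.77 turned without wildtype replicate 1 (-0.27). Of the 7 genes of this list, 4 were tested and 2 were called higher. In overexpressing replicate 1 the PLETHORA genes had many reads and *MtWOX5* had none, but nothing is read from this at so few *MtWOX5* counts.

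Root meristem growth factors (GOLVEN peptides) are secreted peptides that stabilise PLETHORA proteins in *A. thaliana*. Of 12 such genes, 7 had 0 counts in all libraries, 3 were tested and 2 were called higher. *MtGLV14* had no read in wildtype and 114 and 108 counts in overexpressing calli, at least 29.0-fold higher (edgeR adjusted p = 0.0027). *MtGLV13* had 0 and 6 counts in wildtype and 53 and 50 in overexpressing calli, with a log2 fold change of 3.69 (edgeR adjusted p = 0.023). Its call was lost with the replicate number as a block (3.76) and without overexpressing replicate 1 (3.66) or replicate 2 (3.71), and the fit gave 2.65 without wildtype replicate 1 and 8.61, with 0 wildtype counts, without replicate 2. *MtGLV5* had 0 and 10 counts against 31 and 46 (edgeR adjusted p = 0.099), and the call it gained without wildtype replicate 2 (a fitted 8.19) has 0 wildtype counts behind it. As for *MtPLT1* and *MtPLT2*, the wildtype reads of *MtGLV13* and *MtGLV5* came from replicate 2.

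Most of the tested auxin synthesis genes were called higher. The TAA and TAR enzymes make the precursor that YUCCA enzymes turn into auxin. Of 8 such genes 6 were tested and 5 were called higher by edgeR, or 3 by DESeq2, and the median log2 fold change of the 6 was 3.59 with the 3 genes without a wildtype read at their lower bounds (5.99 as fitted). *TAA-1* had no wildtype read and 74 and 52 counts in overexpressing calli, at least 16.4-fold higher (edgeR adjusted p = 0.0046). *MtYUC9* (0 counts to 19 and 43, at least 8.14-fold higher) and *MtTAR2* (0 counts to 17 and 27, at least 5.76-fold higher) had edgeR adjusted p-values of 0.016 and 0.012.

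*TAA-2* had 0 and 11 counts in wildtype replicates 1 and 2 and 197 and 170 in overexpressing calli, for a log2 fold change of 4.67 (edgeR adjusted p = 0.0098, DESeq2 0.098), and the fit was 3.61 without wildtype replicate 1 and 10.44, with 0 wildtype counts, without replicate 2. *MtYUC3* had 0 and 16 counts against 169 and 158, a log2 fold change of 3.97 (edgeR adjusted p = 0.019, DESeq2 0.23). It was not called without overexpressing replicate 1 (3.94) or replicate 2 (3.99), and the fit was 2.91 without wildtype replicate 1 and 10.27, with 0 wildtype counts, without replicate 2. *MtYUC8*, with 1 and 0 against 6 and 8 counts, had an edgeR adjusted p = 0.051. It was called with library size as the only scaling (3.34) and without wildtype replicate 1, where the fitted 5.71 has 0 wildtype counts behind it. Both *TAA-2* and *MtYUC3* thus had the wildtype pattern of *MtPLT1*, with no read in replicate 1.

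Auxin response factors bind the promoters of auxin-regulated genes, and some act upstream of PLETHORA transcription in *A. thaliana*. Of 25 genes, 14 were tested, 8 were called higher and 0 lower by edgeR (1 was lower at an unadjusted p under 0.05, and 0 were called lower by DESeq2). The largest changes were those of *MtARF1*, also annotated *MtARF16a*, from 11 and 20 to 471 and 380 counts (log2 fold change 4.41, edgeR adjusted p = 0.0026), and of *MtARF11*, from 28 and 37 to 255 and 192 counts (2.42, edgeR adjusted p = 0.0041). Their wildtype libraries were closer to each other than those of *MtPLT1* and *MtPLT4*, and the fold change of *MtARF1* lay between 3.97 and 4.99 whichever library was removed. Of the 6 tested genes called in neither direction, *MtARF5* had 230 and 203 counts in wildtype and 346 and 179 in overexpressing calli. Its log2 fold change was -0.075 (edgeR adjusted p = 0.87). Which of these factors act on the PLETHORA genes in these calli was not tested.

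PIN proteins carry auxin out of cells, and in *A. thaliana* PLETHORA factors maintain their transcription in the root. Of 10 genes, 7 were tested, 3 were called higher and 3 lower. *MtPIN2* rose from 123 and 134 to 1189 and 1191 counts (log2 fold change 2.86, standard error 0.15, edgeR adjusted p = 0.0025). *MtPIN10* fell from 672 and 628 to 173 and 175 counts (log2 fold change -2.25, edgeR adjusted p = 0.0025). *MtPIN6* had 14 and 19 counts in wildtype and 0 in either overexpressing library, at least 7.08-fold lower (edgeR adjusted p = 0.0099). *MtPIN7* had 1 and 1 against 7 and 6 counts (edgeR adjusted p = 0.047), a call lost with DESeq2 (0.42), with a minimum of 1 count, with the replicate number as a block, and without wildtype replicate 1 (log2 fold change 2.16) or wildtype replicate 2 (2.31). The PIN genes thus moved in both directions.

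The PLETHORA genes belong to the AP2/ERF superfamily, of which 17 other genes could be matched and 8 were tested, 2 called higher and 1 lower. *MtDRNL* (DORNROESCHEN-LIKE, which acts in organ founder cells in *A. thaliana*) rose from 2 and 8 to 186 and 124 counts (log2 fold change 4.57, edgeR adjusted p = 0.0046), and the fit gave 3.82 when wildtype replicate 1 was left out and 5.93 when replicate 2 was. *MtAP2b* rose from 77 and 70 to 199 and 199 counts (log2 fold change 1.09, edgeR adjusted p = 0.0052). *MtEFD*, an ERF factor required for nodule differentiation, fell from 809 and 454 to 95 and 100 counts (log2 fold change -3.02, edgeR adjusted p = 0.0033). The median log2 fold change of the 8 tested genes was 0.40. The keywords reached only a part of the superfamily and missed the ERF gene *MtTMO3* (log2 fold change 4.73).

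Of the embryo regulators on the list, the keywords matched *MtABI3* alone, a B3 factor of seed maturation. It had 0 and 20 counts in wildtype replicates 1 and 2 and 1184 and 1060 counts in overexpressing calli, for a log2 fold change of 6.43 (edgeR adjusted p = 0.0051). It was 5.37 without wildtype replicate 1 and a fitted 13.05 with 0 wildtype counts without replicate 2. The somatic embryogenesis receptor kinase *MtSERK* had 553 and 506 counts in wildtype and 672 and 584 in overexpressing calli, with a log2 fold change of -0.10 (edgeR adjusted p = 0.52) whose sign turned with library size as the only scaling (0.033). The lateral root gene *MtLBD18* rose from 0 and 10 to 113 and 140 counts (log2 fold change 4.27, edgeR adjusted p = 0.014), not called without overexpressing replicate 2 (4.08), and the fit was 3.22 without wildtype replicate 1 and 9.90, with 0 wildtype counts, without replicate 2. *MtLBD16* had 147 and 118 against 120 and 101 counts (log2 fold change -0.61, edgeR adjusted p = 0.033). Its adjusted p was 0.21 with DESeq2, and its call was lost whichever library was left out (-0.71 to -0.51), and also with the replicate number as a block, a minimum of 1 count or scaling by library size alone. *MtLBD11* had 25 and 22 against 22 and 18 counts (edgeR adjusted p = 0.16). *MtABI3* and *MtLBD18* thus shared with *MtPLT1* and *MtPLT2* the lack of reads in wildtype replicate 1.

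**Figure D4:**
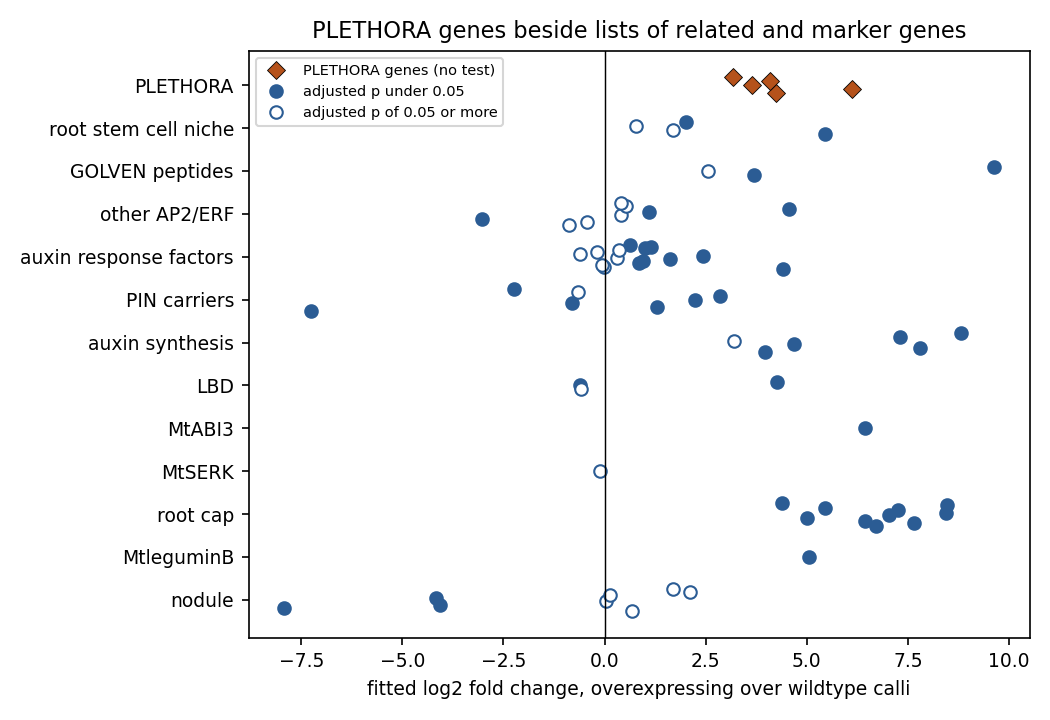
Fitted log2 fold change of *MtWOX9-1*-overexpressing over wildtype calli for the PLETHORA genes (diamonds, no test) and each tested gene of the related and marker lists (circles, filled at an edgeR adjusted p under 0.05). The 5 PLETHORA genes lie between 3.18 and 6.13, the PIN carriers lie on both sides of 0, and the auxin synthesis genes lie above 3. Fitted values of genes at 0 counts in a group depend on the prior count.

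Genes matched by name as markers of other tissues moved with the same contrast, with 1 gene matched for seed. Whether they mark these tissues in callus was not tested. All 10 genes matched as root cap (*MtRC1* and *MtRC3* to *MtRC9*, *MtFEZ* and a FEZ-like gene) were tested and called higher by edgeR, 9 by DESeq2. Their summed level was 4.95 and 30.0 CPM in wildtype replicates 1 and 2 and 1527 and 2362 CPM in overexpressing calli, so it also split the wildtype libraries. *MtRC4* was at 0 counts in both wildtype libraries (at least 12.9-fold higher, edgeR adjusted p = 0.014), and *MtRC8* rose from 3 and 8 to 1807 and 3184 counts (log2 fold change 8.45, edgeR adjusted p = 0.0026, from 7.84 without wildtype replicate 1 to 9.39 without replicate 2). The seed storage gene *MtleguminB* had 13 and 55 counts in wildtype and 785 and 2146 in overexpressing calli (log2 fold change 5.06, edgeR adjusted p = 0.011, from 4.13 without overexpressing replicate 2 to 6.55 without wildtype replicate 2). Between the overexpressing libraries, the summed root cap level was higher in replicate 2. The part of such tissues in the rise of the PLETHORA genes was not tested.

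Nodule genes, the other setting in which PLETHORA genes of *M. truncatula* are known, were nearly silent. Of 686 nodule genes matched, among them leghemoglobins and nodule-specific cysteine-rich peptides, 651 had 0 counts in all 4 libraries. The summed level was 21.8 and 25.6 CPM in wildtype and 12.4 and 9.53 CPM in overexpressing calli. Of 8 tested, 3 were called lower and 0 higher (0 also at an unadjusted p under 0.05 and with DESeq2). *MtNCR247* fell from 26 and 27 to 0 counts, at least 11.3-fold lower (edgeR adjusted p = 0.0055), and *MtNCR674* fell from 51 and 64 to 2 and 6 counts (log2 fold change -4.16, edgeR adjusted p = 0.0048, from -5.13 without overexpressing replicate 2 to -3.56 without replicate 1).

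The genes whose profile over the 4 libraries was most like the mean profile of the PLETHORA genes were sought among 892 other genes with a symbol and a mean of at least 100 normalized counts. The measure was the root mean square difference of the centred log2 values. The closest were *MtMATE29* (0.08), *MtTMO3* (0.15), *MtMATE53* (0.17), *MtGIF1* (0.20) and *MtKunitz9* (0.26). The members themselves lay between 0.10 (*MtPLT4*) and 1.11 (*MtPLT1*) from their own mean. The 5 genes were picked as the nearest of 892, so their distances are not compared with those of the members. They passed the limit of 100 through the overexpressing libraries, with wildtype means of 13.1 (*MtTMO3*) to 41.4 (*MtKunitz9*). The mean profile also includes the 0 counts of *MtPLT1* and *MtPLT2* in wildtype replicate 1, with 1 added before the log. *MtTMO3*, an ERF gene annotated as TARGET OF MONOPTEROS 3 and not matched by the AP2/ERF keywords, had 2 and 20 counts in wildtype and 417 and 339 in overexpressing calli. *MtGIF1*, a GRF-interacting transcriptional coactivator, had 4 and 55 against 697 and 494 counts, and *MtMATE29*, a transporter of the multidrug and toxic compound extrusion family, 3 and 32 against 467 and 355. *MtMATE53*, of the same family, had 4 and 29 against 473 and 403 counts, and the proteinase inhibitor *MtKunitz9* 11 and 59 against 1081 and 1060. With 4 libraries the likeness is a description only.

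The positions of the PLETHORA genes in the order of IDs were compared with the genes up to 3 places to either side, 30 in all. No read was found for 12 of these in any library. Of the 16 tested, 4 were called higher and 5 lower (edgeR), with a median log2 fold change of -0.36. The shares over all genes tested were 20.2% higher and 18.9% lower, and with 16 neighbours nothing is read from the difference. The 4 tested neighbours of *MtPLT1* and *MtPLT2* had log2 fold changes between -0.39 and 0.30, with edgeR adjusted p-values of 0.059 to 0.74. The neighbour just before *MtPLT3*, MtrunA17Chr5g0412141, had 8 and 23 counts in wildtype and 258 and 190 in overexpressing calli (log2 fold change 3.48, edgeR adjusted p = 0.0061), close to the 3.65 of *MtPLT3* itself. Beyond it on both sides the tested genes were lower, among them *MtPUB41* 2 places after *MtPLT3* (log2 fold change -2.21, edgeR adjusted p = 0.0055).

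The gene just after *MtPLT5*, MtrunA17Chr4g0072301, had 52 and 34 counts in wildtype and 265 and 209 in overexpressing calli (log2 fold change 2.12, edgeR adjusted p = 0.0040), and the gene 3 places after it had 0 and 1 against 58 and 90 counts. Around *MtPLT4* the neighbours had log2 fold changes between -1.24 and 0.87. Since the counting is not stated to use strand, reads of a gene that overlaps one of these cannot be told apart from its own. This bears on *MtPLT3* and *MtPLT5*, whose adjacent genes moved in the same direction, and whether they overlap was not tested.

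**Figure D5:**
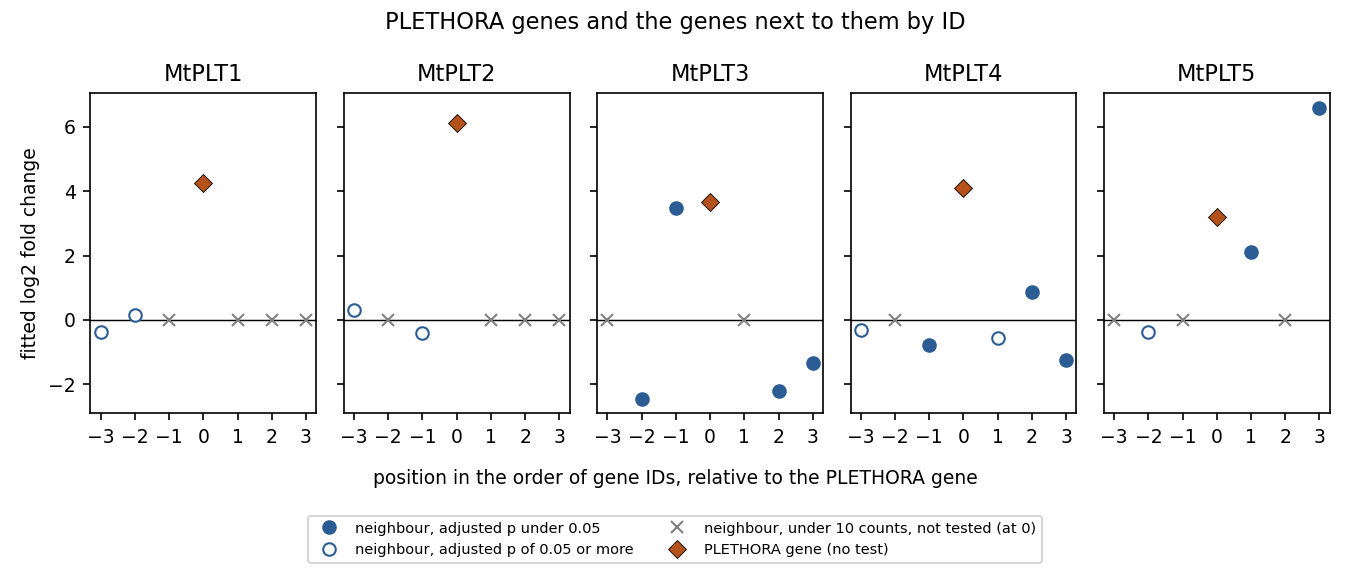
Fitted log2 fold change of each PLETHORA gene (diamond, position 0) and of the genes up to 3 places before and after it in the order of gene IDs, with crosses at 0 for neighbours under 10 counts that were not tested. *MtPLT1*, *MtPLT2*, *MtPLT3* and *MtPLT4* stand above all their tested neighbours, of which the one at 3.48 is close to *MtPLT3*, while *MtPLT5* has a neighbour at 6.58.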

How the data were processed

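One deposited table holds unnormalized counts of reads for 52709 genes in 4 libraries, and another the authors' normalized signal, which is the deposited count times 1 constant per library. The latter also holds the authors' own fold changes and p-values, which were not used, and the gene symbols and descriptions (3772 and 3784 genes), which were. The submitters' processing notes name Trimmomatic, HISAT2, StringTie and DESeq, without versions. The handling of strand and of multiply mapped reads is not given in the sources used here. No per-sample column was left unused.

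The counts were fitted with edgeR 4.0.16 under R 4.3.3. The 24630 genes that summed to 10 counts or more were scaled by TMM and tested by the quasi-likelihood test on condition, two-sided, with Benjamini-Hochberg adjustment over all genes and a threshold of 0.05. A standard error is the log2 fold change divided by the root of the test statistic. Alternatives were DESeq2 1.42.0, DESeq2's size factors, library size alone, a minimum of 1 count, a prior count of 2, the replicate number as a block, and each library left out. Both tools were tested on simulated counts of this design with 200 changed genes. Of these, edgeR recovered 182 and DESeq2 175. They also called 40 (edgeR) and 53 (DESeq2) unchanged genes, more than the threshold stands for. The changed genes were drawn from those with more counts, at a log2 change of 2, and both groups had the same dispersion. Far fewer genes changed than were called in the data. The rates therefore do not carry over to genes with few reads or with unequal replicate spread.

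The 5 genes and the lists were chosen with earlier results of these data known. Named are the 5 genes, *MtWOX9-1*, all tested genes of lists with at most 6, otherwise the 2 called genes with the largest change in each direction, and the 5 genes with the most similar profile. Genes next to the members, *MtARF5* and the remaining root cap genes were named after their values were seen. By hand, 7 wrong keyword matches were removed from the AP2/ERF and nodule lists.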

Additional observations from a re-analysis of the deposited data

How the results depend on the processing

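The log2 fold changes of the 5 PLETHORA genes were positive under each alternative tried. Scaling, the count filter, the prior count and DESeq2 moved each of them by less than the spread between replicates. With 1 library left out they lay between 3.19 and 12.13 for *MtPLT1*, 5.07 and 11.75 for *MtPLT2*, 3.02 and 4.71 for *MtPLT3*, 3.17 and 6.65 for *MtPLT4* (and for the median), and 2.64 and 3.97 for *MtPLT5*, the upper ends without wildtype replicate 2. Over all genes DESeq2 called 3323 higher and 3088 lower, against 4985 and 4660 in edgeR, and with 1 library left out edgeR called 2696 to 4465 higher and 2935 to 3858 lower. Of the 47 related genes tested, 18 to 23 were called higher and 4 or 5 lower with 1 library left out. Library size as the only scaling called 6024 higher and 3928 lower, raised the median log2 fold change of all genes by 0.14 and turned the sign of *MtSERK* (0.033). The sign of *MtWOX5* turned without wildtype replicate 1 (-0.27), and the fit without wildtype replicate 2 (6.27) has 0 wildtype counts behind it and depends on the prior count. The cause was not tested.

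The replicate numbers were not taken as pairs, since the labels name no shared batch and the deviations of libraries with the same number correlated at -0.0374 over 18299 genes. With the replicate number as a block, 3332 genes were called higher and 3336 lower, the median log2 fold change of the PLETHORA genes was 4.34, and 4 of the 5 were called. Of the related genes 20 were called higher and 4 lower with the block.

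Depth limits the lowest values. At 3 counts of a library total, 0 counts allow 0.450 to 0.572 CPM, so the level of *MtPLT1* and *MtPLT2* in wildtype replicate 1 is known only as an upper limit.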
